A study of Mus musculus with 8 samples.

Results

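The genes of MHC and antigen presentation were examined in primary lung fibroblasts (pFBs) that carry human IGFBP5 (hIGFBP5) and in pFBs that do not. A gene was a member if its symbol in the count table begins with H2- or is one of B2m, Tap1, Tap2, Tapbp, Tapbpl, Psmb8, Psmb9, Psmb10, Psme1, Psme2, Nlrc5, Ciita, Cd74, Erap1 and Calr. This took 60 of the 54532 genes listed. Of these, 45 belong to the class I route and 14 to the class II route, and H2-Ke6, a steroid dehydrogenase gene of the same region, belongs to neither. In all, 50 members lie on chromosome 17, which holds the mouse MHC.

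The libraries came from pFBs of female mice on a C57/black background, 4 from wild-type mice (WT1 to WT4) and 4 from mice homozygous for the transgene (HOMO1 to HOMO4). The transgene was knocked in with CRISPR/Cas9 and is driven by the ubiquitous Ef1a1 promoter, and its expression in these libraries was not analysed here. All cells were grown in DMEM with 10% FBS and used between passages 3 and 7, with no interferon or other stimulus named in the sources used here. The number of mice behind the libraries is not stated, so p-values measure the spread between these libraries, which may be partly technical. The values are counts of reads per gene, and levels are given as CPM (counts scaled to library size) after TMM scaling in edgeR, which corrects for library size and composition.

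Between 17236521 and 31987790 reads were counted per library, at which 3 counts correspond to 0.0908 to 0.172 CPM, a floor that covers counting error only. WT1 was far more alike to WT2, HOMO1 to HOMO2 and HOMO3 to HOMO4 (biological coefficient of variation within a pair of 4.71 to 7.65%) than were libraries in the other pairs of one genotype (30 to 56.4%). Their counts still differed beyond sampling noise (chi-square per degree of freedom 4.03 to 8.14), and all 8 libraries were kept apart. The summed level of 8 fibroblast markers was 9925 to 22320 CPM, with Col1a1 and Col1a2 the most abundant. The summed level of 12 macrophage markers was 2343 CPM in WT3 and 1395 CPM in WT4 but 27.8 to 184 CPM in the other 6 libraries. Of the 11 that could be tested, 0 were called by edgeR and 8 had an unadjusted p under 0.05, beside 32.3% of all genes. All 11 had negative log2 fold changes (HOMO minus WT), from -4.64 to -0.82, and the middle value was -2.78. DESeq2, at the same thresholds, called all of these except Csf1r and Fcer1g. The 4 B cell markers summed to 1 to 8 counts per library and the 4 T cell markers to 0 to 3, and of the 6 dendritic cell markers Clec9a stood at 0 counts, Flt3 and Ccr7 at 3 or fewer in total, and Itgax, Zbtb46 and Xcr1 at 883, 789 and 216 in total. Over the marker lists of 8 cell types, 1 gene each was called in 4 lists, and the genotypes did not overlap in these 4 genes. The genes tested were 8 fibroblast, 11 macrophage, 3 dendritic cell, 4 mesothelial, 1 epithelial and 1 endothelial, with 0 for B and T cells. Among all genes tested, 12.1% were called and 27.3% did not overlap, and nothing about cell content was read from these calls. The dendritic cell marker Xcr1 had 0.310 to 0.686 CPM in WT and 0.802 to 3.45 CPM in HOMO libraries (edgeR adjusted p = 0.042). Its list did not move together, as Itgax and Zbtb46, not called by edgeR, had log2 fold changes of -2.70 and -0.02. The mesothelial gene Wt1, not to be confused with the library, had 1.12 to 8.67 CPM in WT and 26.8 to 40.6 CPM in HOMO libraries (edgeR adjusted p = 0.0166). The other mesothelial markers did not rise with it. Krt19 had a log2 fold change of -3.06, Msln of -0.52 and Upk3b of 0.09, and edgeR called none of them. The epithelial marker Cdh1 had 0 to 0.503 CPM in WT and 1.16 to 2.21 CPM in HOMO libraries (edgeR adjusted p = 0.0462). Cdh1, at 0 to 13 counts per WT library, entered the test through its counts in HOMO libraries alone, so that a difference had to follow. The fibroblast marker Pdgfrb fell in HOMO libraries, and of the 8 fibroblast markers 4 had positive and 4 had negative log2 fold changes. The part of such cells in the values of the called members, Nlrc5 included, was not tested. The mouse Igfbp5 row had 7.31, 9.65, 409 and 4.34 CPM in WT1 to WT4 and 1.07 to 2.86 CPM in HOMO libraries. WT3 thus stood far above the other WT libraries. The paper reports endogenous mouse Igfbp5 as undetectable in both groups. Whether reads of the human transgene reach this row was not tested.

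MHC class I molecules are made of a polymorphic heavy chain and B2m, and they show peptides from inside the cell to CD8 T cells. The proteasome cuts these peptides, the TAP transporter carries them into the endoplasmic reticulum, and Tapbp and Calr help load them. Class II molecules show peptides taken up from outside, are made mainly by professional antigen presenting cells, and depend on the transactivator Ciita and the invariant chain Cd74. Fibroblasts are known to carry class I at rest and to raise class I, the immunoproteasome and class II when they meet interferon gamma.

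Promoter sequence is shown first, because the classical heavy chains, B2m and the Tap1 and Psmb9 pair are known to share regulatory elements. RefSeq windows (GRCm38.p6) were matched by symbol for 42 of the 60 members and for 21 of the 27 members tested. In the lines that follow, written 5′ to 3′ on the strand of the gene, capitals mark 4 sets of letters that were searched on both strands in the 250 bases before each start. These were GGGATTCCC, the core of enhancer A that NF-kB is known to bind, GAAGTGAAA, the interferon element of the classical heavy chains, the wider interferon-stimulated form GAAANNGAA, and TGACG, the core of the element that CREB-type factors of the NLRC5 and CIITA complex bind. None of these letters overlapped another set in the stretches shown.

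H2-K1 (chr17:34000369-34000467, minus strand): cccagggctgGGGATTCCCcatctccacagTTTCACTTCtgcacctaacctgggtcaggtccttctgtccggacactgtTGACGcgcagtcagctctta
H2-D1 (chr17:35262914-35263012, plus strand): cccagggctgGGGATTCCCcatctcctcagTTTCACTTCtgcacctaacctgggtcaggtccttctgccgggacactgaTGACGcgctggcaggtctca
H2-Q4 (chr17:35379434-35379532, plus strand): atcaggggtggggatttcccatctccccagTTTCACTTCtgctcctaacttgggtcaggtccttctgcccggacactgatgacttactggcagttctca
B2m (chr2:122147518-122147616, plus strand): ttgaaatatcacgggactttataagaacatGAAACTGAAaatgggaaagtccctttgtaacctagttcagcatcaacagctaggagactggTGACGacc

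H2-K1 and H2-D1 held GGGATTCCC and then the interferon element, written on the opposite strand as TTTCACTTC, and TGACG followed further on in both. H2-Q4 held the interferon element, but not the enhancer A letters. At the place where H2-D1 shows TGACG, the H2-Q4 stretch reads tgact, and a separate TGACG lay beyond the stretch shown. B2m held GAAANNGAA and TGACG. Among all 32851 promoter windows of the table, GGGATTCCC stood in 0.301%, GAAGTGAAA in 0.402%, GAAANNGAA in 7.13% and TGACG in 17.8%. Among the 42 matched members, 4 held GGGATTCCC, 7 held GAAGTGAAA, 4 held GAAANNGAA and 16 held TGACG. A match of letters is a description of the sequence and not a measurement of binding.

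Tap1 and Psmb9 are transcribed away from each other from neighbouring starts, and the 225 bases between their RefSeq starts are shown because these genes were measured on both sides of 1 short stretch.

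Tap1 and Psmb9 (chr17:34187331-34187555, strand of Tap1): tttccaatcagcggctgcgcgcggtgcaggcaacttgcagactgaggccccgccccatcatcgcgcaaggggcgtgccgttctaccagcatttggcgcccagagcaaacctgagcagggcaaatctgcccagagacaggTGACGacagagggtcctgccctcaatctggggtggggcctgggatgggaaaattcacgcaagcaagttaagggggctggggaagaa

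This stretch held 1 TGACG and none of the other 3 sets of letters. In the windows of Psmb8, Psmb10 and H2-M5, which were higher in HOMO libraries as described below, none of the 4 sets was found. No window was matched for Nlrc5, which was also higher in HOMO libraries, so its promoter was not searched.

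Of the 60 members, 13 had 0 counts in all libraries, 7 had 1 to 9 counts in total, 13 had at least 10 counts but were outside edgeR's filter for expressed genes, and 27 were tested. A gene was called when the edgeR quasi-likelihood F test, adjusted by Benjamini-Hochberg over the 14150 genes tested, gave p under 0.05 and the log2 fold change exceeded 0.6 in size. By this rule 4 of 27 members were called, beside 12.1% of all genes tested. All 4 were higher in HOMO libraries, where 5.94% of all genes were called, and 0 were lower, where 6.18% were called. H2-M5, among these, entered the test through its counts in HOMO libraries alone. The 4 are Nlrc5, Psmb8, Psmb10 and H2-M5, all of the class I route. Of the 3 class II members tested, 0 were called by edgeR, 1 had an unadjusted p under 0.05 and 1 was called by DESeq2. An unadjusted p under 0.05 was seen for 9 of 27 members, beside 32.3% of all genes, and the genotypes did not overlap in 5 of 27 members, beside 27.3% of all genes. With DESeq2, 7 of 27 members were called, beside 19.0% of all genes. With so few members called, nothing particular to the list was read from these shares. The median log2 fold change was 0.25 over the 27 members, 0.32 over the 24 of class I and -0.99 over the 3 of class II, beside -0.04 over all genes.

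**Figure D1:**
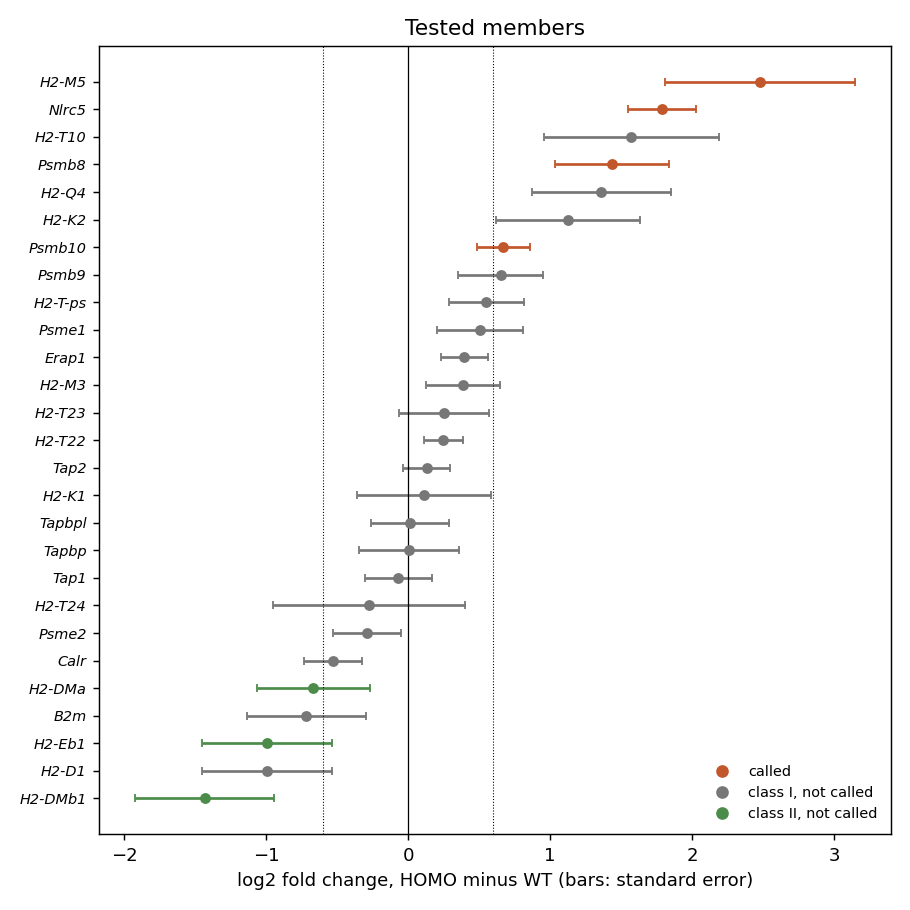
Log2 fold change (HOMO minus WT) of the 27 tested members, with the standard error as bars and dotted lines at the fold threshold of 0.6 on either side. The 4 called genes, in orange, lie above the upper line, and the 3 class II genes, in green, lie between -1.43 and -0.67.

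Nlrc5 was the most clearly changed member. It encodes the transactivator of class I genes and lies on chromosome 8 (94434356 to 94527272, GRCm38). Its level was 3.09, 3.13, 2.18 and 3.56 CPM in WT1 to WT4 and 12.2, 11.7, 8.31 and 9.32 CPM in HOMO1 to HOMO4. Every HOMO library lay above every WT library, and the means were 2.99 ± 0.581 and 10.36 ± 1.84 CPM (SD, n = 4 each). The log2 fold change was 1.79 (SE 0.24, edgeR adjusted p = 0.00467), and the gene was called without each of the 8 libraries in turn. When the near-identical libraries were summed into 3 WT and 2 HOMO units, the log2 fold change was 1.82 and the edgeR adjusted p was 0.265, a setting in which none of the 27 members was called.

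The second transactivator, Ciita, which serves class II, was outside the filter for expressed genes. It had too few counts to tell whether it changed with Nlrc5. Ciita had 0, 4, 1 and 8 counts in the WT libraries and 8, 7, 2 and 2 in the HOMO libraries (exact permutation p = 0.514, two-sided). The libraries of both genotypes ranged over the same few counts. Nlrc5 and Psmb10 share chromosome 8 with Calr. The 790 genes tested on that chromosome had a median log2 fold change of 0.37, with 152 called (19.2%) and 135 of these higher in HOMO libraries. Within 3 Mb of Nlrc5 the median of 45 other genes was 0.32, with 9 called (20.0%). Within 3 Mb of Psmb10 the median of 84 other genes was 0.51, with 15 called (17.9%). Over all genes tested the median was -0.04, with 12.1% called and 5.94% called higher in HOMO libraries. The part of this chromosome-wide difference in the values of Nlrc5 and Psmb10 was not tested.

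Of the 6 genes that make peptides, 2 were called, both higher in HOMO libraries, beside the 5.94% of all genes. Psmb8, Psmb9 and Psmb10 encode the catalytic subunits of the immunoproteasome, which replace the constitutive Psmb5, Psmb6 and Psmb7 in turn. Psmb8 had 2.81, 3.56, 7.86 and 2.71 CPM in the WT libraries and 13.8, 13.9, 7.20 and 10.8 CPM in the HOMO libraries. WT3 lay above HOMO3, and all other WT libraries lay below all HOMO libraries. Psmb8 had a log2 fold change of 1.43 (SE 0.40, edgeR adjusted p = 0.0474). Psmb8 remained called without WT3 but not without any of the other 7 libraries, where the largest edgeR adjusted p was 0.135. A share of 14.7% of its exon bases is also covered by Gm20496 on the opposite strand.

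Psmb10 had 26.1, 25.3, 31.4 and 17.1 CPM in the WT libraries and 40.3, 41.0, 39.3 and 38.5 CPM in the HOMO libraries. The genotypes did not overlap, and the HOMO libraries lay within a narrow range. Its log2 fold change was 0.67 (SE 0.18, edgeR adjusted p = 0.0457), and the call held without WT3 but not without any of the other 7 libraries, with an edgeR adjusted p of up to 0.126. Psmb9 had 2.08, 2.75, 2.58 and 1.90 CPM in the WT libraries and 4.82, 3.66, 2.28 and 3.86 CPM in the HOMO libraries. Only HOMO3 lay within the WT range, and the log2 fold change of 0.65 did not pass the test (SE 0.30, edgeR adjusted p = 0.168).

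The constitutive subunits stood the other way. Psmb5 had a log2 fold change of -0.75 (edgeR adjusted p = 0.0675), Psmb6 of -0.55 (0.149) and Psmb7 of -0.59 (0.0722), and none of the 3 was called by edgeR, though Psmb5 and Psmb7 were without WT4, and DESeq2 called Psmb5 (DESeq2 adjusted p = 0.0229). Because the members of each pair had fold changes in opposite directions, the ratios within a library were set out as a description, with no test, on a per-kilobase scale. The Psmb8 to Psmb5 ratio was 0.00776, 0.0109, 0.0134 and 0.00962 in the WT libraries and 0.0703, 0.0662, 0.0273 and 0.0427 in the HOMO libraries. The Psmb10 to Psmb7 ratio was 0.489, 0.574, 0.531 and 0.449 in the WT libraries and 1.43, 1.54, 1.02 and 1.06 in the HOMO libraries. The Psmb9 to Psmb6 ratio was 0.0072 to 0.0142 in WT and 0.0137 to 0.0311 in HOMO libraries, with only HOMO3 inside the WT range. Psmb8 and Psmb9 lay below their constitutive counterparts in every library, per kilobase and in CPM. The size of each ratio rests on the lengths used, which join all annotated exons of a gene (Psmb8 3381 bases, Psmb5 899, Psmb10 1705 and Psmb7 3421). Per kilobase Psmb10 exceeded Psmb7 in every HOMO library. In CPM it lay below Psmb7 there, at 38.5 to 41.0 against 53.5 to 77.5 CPM, so which of the 2 is the higher was not settled.

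**Figure D2:**
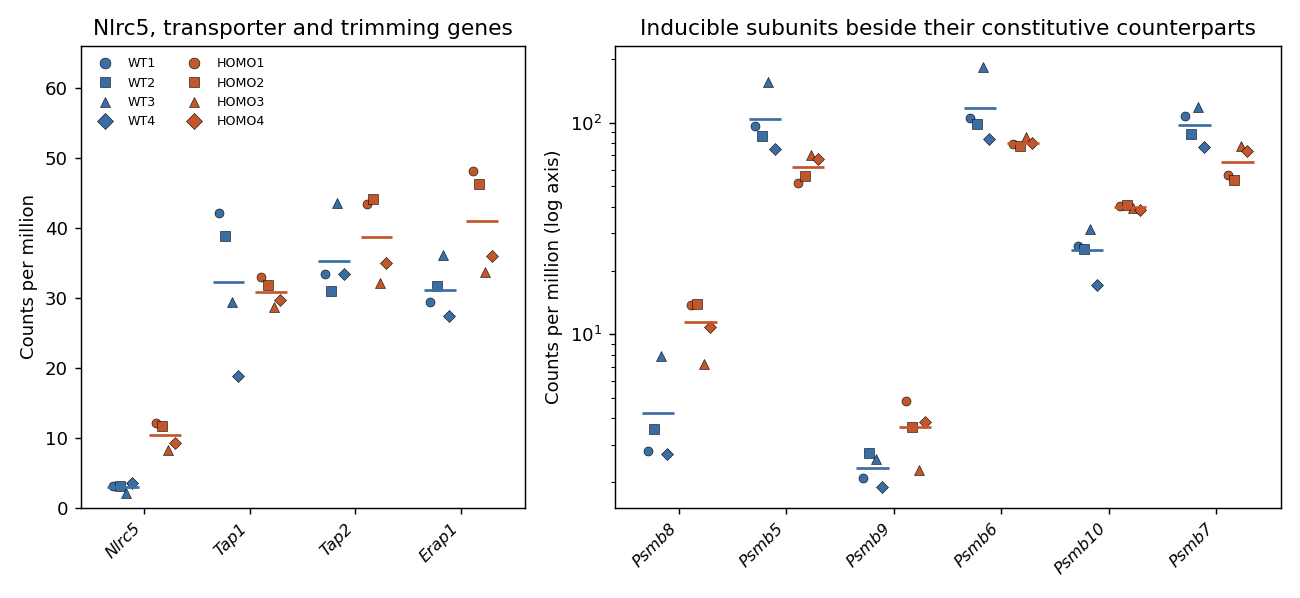
CPM by library of Nlrc5, Tap1, Tap2 and Erap1 (left, linear axis) and of the inducible proteasome subunits, each to the left of its constitutive counterpart (right, log axis). Points are libraries and lines are means. Nlrc5 does not overlap between genotypes, with 2.18 to 3.56 CPM in WT and 8.31 to 12.2 CPM in HOMO libraries.

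The 11S proteasome activator subunits Psme1 and Psme2, which open the proteasome for peptide output, were not called. Psme1 had 32.6 to 90.8 CPM in WT and 62.6 to 91.6 CPM in HOMO libraries (log2 fold change 0.51, SE 0.31, edgeR adjusted p = 0.284). WT3 was the highest WT library, and without it the edgeR adjusted p was 0.025 and Psme1 was called. Psme2 had 39.3 to 94.9 CPM in WT and 50.9 to 52.5 CPM in HOMO libraries (log2 fold change -0.29, SE 0.24, edgeR adjusted p = 0.433), and 18.4% of its 100-base windows also occur in Psme2b, so its counts are uncertain. Erap1, which trims peptides in the endoplasmic reticulum, had 29.4, 31.7, 36.2 and 27.5 CPM in WT and 48.2, 46.2, 33.8 and 36.0 CPM in HOMO libraries. Erap1 had a log2 fold change of 0.40 (SE 0.16, edgeR adjusted p = 0.137), with overlap at WT3. Psme3, a nuclear activator outside the class I route, had a log2 fold change of 0.07 (edgeR adjusted p = 0.792).

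Of the 6 genes of the light chain and of peptide transport and loading, 0 were called by edgeR, with 1 at an unadjusted p under 0.05 and 0 called by DESeq2. Over all genes tested these shares were 12.1%, 32.3% and 19.0% in turn. Tap1 had 42.2, 38.8, 29.4 and 18.8 CPM in the WT libraries and 33.0, 31.9, 28.6 and 29.7 CPM in the HOMO libraries (log2 fold change -0.07, SE 0.24, edgeR adjusted p = 0.874). The HOMO libraries lay inside the WT range, whereas 3 of 4 HOMO libraries of Psmb9, across the shared stretch shown above, lay above the WT range of that gene. Tap2 had 31.0 to 43.5 CPM in WT and 32.1 to 44.2 CPM in HOMO libraries (log2 fold change 0.13, SE 0.17, edgeR adjusted p = 0.625). Neither transporter subunit was separated between genotypes.

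Tapbp, the tapasin that bridges TAP to the heavy chain, had 91.9, 104, 291 and 119 CPM in the WT libraries and 162, 163, 139 and 144 CPM in the HOMO libraries. WT3 lay above all other libraries, and the other 3 WT libraries lay below all HOMO libraries. The log2 fold change was 0.01 (SE 0.35, edgeR adjusted p = 0.992), and 0.64 (edgeR adjusted p = 0.00724) with WT3 and WT4 left out. Without WT3 and WT4, the WT side is WT1 and WT2, which are near-identical, so that the spread is understated. Tapbpl, a second peptide editor, had 8.78 to 16.8 CPM in WT and 8.41 to 15.5 CPM in HOMO libraries (log2 fold change 0.01, SE 0.27, edgeR adjusted p = 0.979).

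Calr, the chaperone calreticulin, had 1228, 1208, 2087 and 1646 CPM in the WT libraries and 1078, 1038, 1086 and 1074 CPM in the HOMO libraries. The genotypes did not overlap, yet the log2 fold change of -0.53 did not pass the test (SE 0.20, edgeR adjusted p = 0.114). Its partners in folding were Canx, which holds new heavy chains, and Pdia3, an oxidoreductase of the loading complex. Canx fell in HOMO libraries, from 850 to 1215 CPM in WT to 513 to 570 CPM (log2 fold change -0.84, SE 0.16, edgeR adjusted p = 0.0133). Canx lost its call without HOMO1 or without HOMO2, where the largest edgeR adjusted p was 0.0595. Pdia3 had a log2 fold change of -0.85 (SE 0.26, edgeR adjusted p = 0.0615), with 1162 to 2406 CPM in WT and 782 to 898 CPM in HOMO libraries.

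B2m, the common light chain, was the most abundant member per kilobase of exon in both genotypes, with 1090 CPM per kilobase in WT and 663 in HOMO libraries on average. Its level was 442, 517, 1828 and 963 CPM in WT1 to WT4 and 625, 627, 499 and 528 CPM in HOMO1 to HOMO4. The highest WT library held 4.14 times the level of the lowest, against 1.26 times among the HOMO libraries, which lay between WT1 and WT4. The log2 fold change was -0.72 (SE 0.42, edgeR adjusted p = 0.270). B2m served the study as a reference gene in its qPCR, and the paper states that Gapdh, also used, made no notable difference. WT3 and WT4, highest in B2m, were also the libraries with the high macrophage markers, whose part in this was not tested. With both left out the log2 fold change was 0.25 (edgeR adjusted p = 0.197).

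The classical heavy chains H2-K1 and H2-D1 followed B2m across the WT libraries, and their proportion to each other was set apart by genotype. H2-K1 (chromosome 17, 33996017 to 34000347) had 58.2, 61.8, 279 and 119 CPM in WT1 to WT4 and 162, 159, 117 and 122 CPM in HOMO1 to HOMO4. H2-D1 (chromosome 17, 35262730 to 35267499) had 115, 122, 534 and 243 CPM in the WT libraries and 123, 121, 126 and 139 CPM in the HOMO libraries. WT1 and WT2 thus lay below every HOMO library in H2-K1 and beside them in H2-D1, while WT3 was the highest library in both. The log2 fold change was 0.11 for H2-K1 (SE 0.47, edgeR adjusted p = 0.899) and -1.0 for H2-D1 (SE 0.46, edgeR adjusted p = 0.170). With WT3 and WT4 left out, it was 1.22 for H2-K1 (edgeR adjusted p = 0.00424) and 0.10 for H2-D1 (edgeR adjusted p = 0.398). This setting was added after the data were seen, and it understates the spread, as WT1 and WT2 are near-identical. With near-identical libraries summed, the log2 fold change was -0.11 for H2-K1 (edgeR adjusted p = 0.954) and -1.21 for H2-D1 (edgeR adjusted p = 0.444).

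The ratio of H2-K1 to H2-D1 within a library, per kilobase, was 0.444, 0.445, 0.460 and 0.430 in the WT libraries and 1.16, 1.16, 0.811 and 0.769 in the HOMO libraries. It was thus nearly the same in all 4 WT libraries, although the highest WT library held 4.80 times the H2-K1 and 4.64 times the H2-D1 of the lowest, and it was higher in all 4 HOMO libraries. The means were 0.445 ± 0.0123 and 0.975 ± 0.214 (SD, n = 4 each). This ratio was chosen after the values were seen and is given without a test. The pair is closely related in sequence, yet 3.6% of the 100-base windows of H2-D1 and 1.0% of those of H2-K1 occur in other genes. The ratio of B2m to the sum of both heavy chains was 7.97, 8.80, 7.04 and 8.30 in the WT libraries and 7.08, 7.23, 6.55 and 6.44 in the HOMO libraries. Light and heavy chain transcripts kept a similar proportion across a wide span of levels, with overlap between the genotypes.

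**Figure D3:**
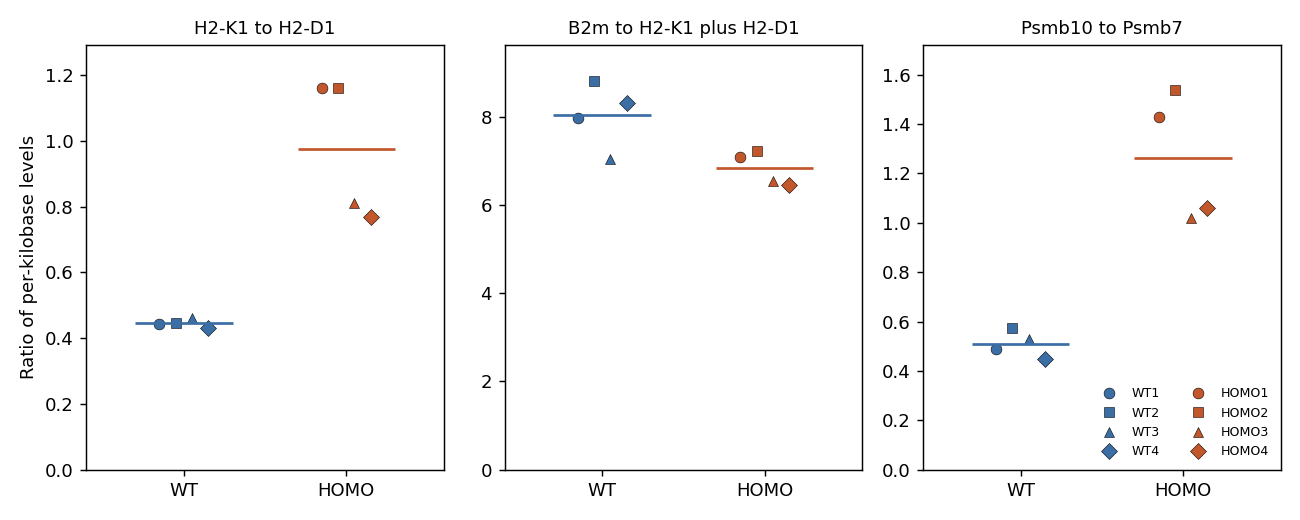
Ratios within each library of per-kilobase levels, on linear axes that start at 0. Points are libraries and lines are means. The H2-K1 to H2-D1 ratio lies between 0.430 and 0.460 in WT and between 0.769 and 1.16 in HOMO libraries, and the Psmb10 to Psmb7 ratio is likewise higher in every HOMO library, while B2m to both heavy chains overlaps.

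Among the other heavy chains, H2-M5, a class Ib gene at the distal end of the region, was called at a low level. It had 8, 7, 2 and 2 counts in the WT libraries and 46, 63, 11 and 14 counts in the HOMO libraries. HOMO1 and HOMO2 were well above HOMO3 and HOMO4, and all lay above the WT libraries. H2-M5 had a log2 fold change of 2.47 (SE 0.67, edgeR adjusted p = 0.0435). It passed the filter on low counts through the HOMO libraries alone, so that a difference had to follow, and its call was lost with no filter. It remained called without WT1 but not without any of the other 7 libraries, where the edgeR adjusted p reached 0.130.

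H2-Q4, another class Ib gene, had 7.26, 5.66, 11.5 and 1.90 CPM in the WT libraries and 21.9, 21.1, 11 and 13.4 CPM in the HOMO libraries. WT3 lay just above HOMO3, and the log2 fold change was 1.36 (SE 0.49, edgeR adjusted p = 0.0971). Without WT3 alone the edgeR adjusted p was 0.0399 and the gene was called. H2-T10 had 2.25, 1.89, 2.98 and 0.194 CPM in the WT libraries and 5.62, 6.08, 4.61 and 5.31 CPM in the HOMO libraries. The genotypes did not overlap, with WT4 at only 5 counts, and the log2 fold change of 1.57 did not pass the test (SE 0.62, edgeR adjusted p = 0.120). Without WT4 the edgeR adjusted p was 0.0263. A share of 28.1% of the windows of H2-T10 occurs in other genes, H2-T22 among them, so its counts are uncertain.

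H2-T22 and H2-T23 were the most abundant class Ib heavy chains, with H2-T23 encoding the Qa-1 molecule that presents leader peptides to NK cell receptors. H2-T22 had 75.4 to 93.1 CPM in WT and 88.0 to 118 CPM in HOMO libraries (log2 fold change 0.25, SE 0.14, edgeR adjusted p = 0.246), with 31.5% of its windows shared with other genes. H2-T23 had 38.6, 55.7, 60.7 and 123 CPM in the WT libraries and 79.2 to 86.2 CPM in the HOMO libraries (log2 fold change 0.25, SE 0.31, edgeR adjusted p = 0.615). WT4 was the highest library in H2-T23, and without it the edgeR adjusted p was 0.0388 and the gene was called. H2-M3, which presents formylated peptides, had 4.05 to 8.89 CPM in WT and 7.07 to 9.23 CPM in HOMO libraries (log2 fold change 0.39, SE 0.26, edgeR adjusted p = 0.341).

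H2-T24 had 8.21, 10.9, 0.459 and 7.90 CPM in the WT libraries and 5.31, 4.81, 6.44 and 6.17 CPM in the HOMO libraries. WT3, highest in H2-K1, H2-D1 and B2m, held only 8 counts of H2-T24. Its log2 fold change was -0.28 (SE 0.68, edgeR adjusted p = 0.812). H2-K2, annotated in GENCODE as a transcribed pseudogene, had 0.574 to 1.54 CPM in WT and 0.710 to 3.30 CPM in HOMO libraries (log2 fold change 1.13, SE 0.51, edgeR adjusted p = 0.162). The pseudogene H2-T-ps had 2.87 to 4.89 CPM in WT and 4.01 to 5.92 CPM in HOMO libraries (log2 fold change 0.55, SE 0.26, edgeR adjusted p = 0.187).

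**Figure D4:**
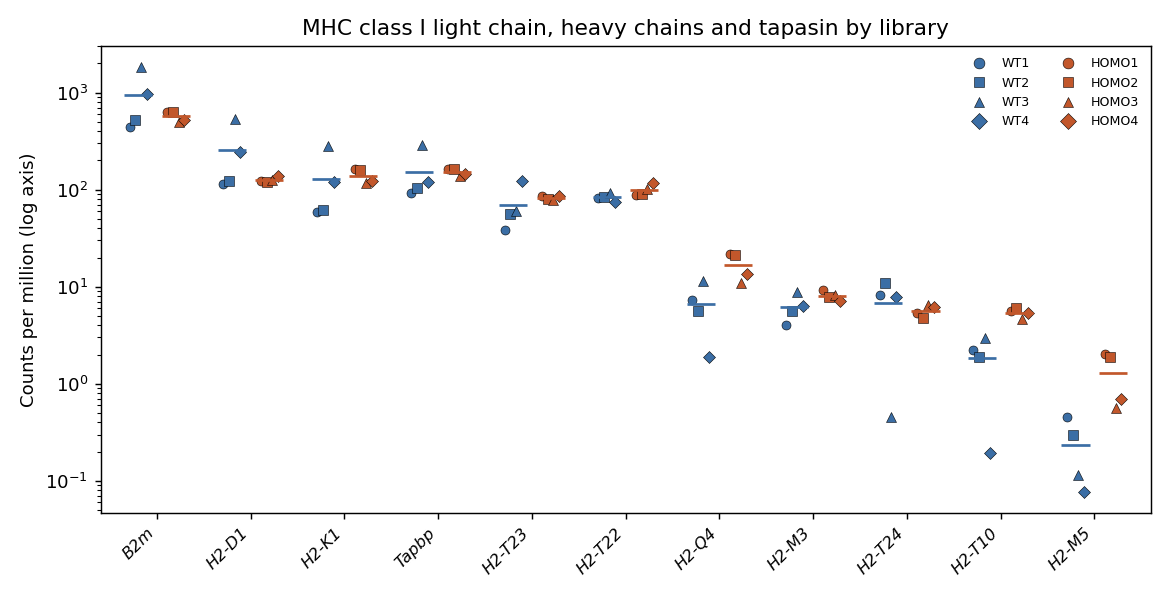
CPM by library, on a log axis, of B2m, Tapbp and the class I heavy chains that were tested, except H2-K2. Points are libraries and lines are means. WT3 stands highest in B2m, H2-D1 and H2-K1 and lowest in H2-T24, at 0.459 CPM, and the HOMO libraries of the abundant genes lie close together.

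Per kilobase of exon, the WT means ran from B2m (1090 CPM per kilobase) through Calr (536), H2-D1 (98.3), H2-K1 (44.1) and Tapbp (41.7) down to Nlrc5 (0.352) and H2-M5 (0.0876). In HOMO libraries the order at the top was B2m (663), Calr (371), H2-D1 (49.3), H2-K1 (47.6) and Tapbp (41.9). The ranges of H2-D1 and H2-K1, and those of H2-K1 and Tapbp, overlapped across the libraries of both genotypes. Within each WT library, however, H2-D1 lay above H2-K1, as their ratio above shows. Nlrc5 at 1.22 and H2-M5 at 0.485 CPM per kilobase in HOMO libraries remained among the lowest tested members.

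Of the remaining class I genes, none with at least 10 counts in all had p under 0.05 in the exact permutation test over the 70 assignments of libraries, whose smallest possible p is 0.0286. H2-Q7 and H2-Q6, the Qa-2 genes, had 55 and 38 counts in total (exact permutation p = 0.686 and 0.771, two-sided). H2-Q2 had 0, 0, 1 and 0 counts in the WT libraries and 0, 0, 0 and 32 counts in the HOMO libraries (exact permutation p = 1.0, two-sided). H2-Q1 had 1 count in WT2 and 10 counts in HOMO4 (exact permutation p = 1.0, two-sided). H2-T3, which encodes the thymus leukemia antigen known from intestinal epithelium, had 0 counts in the WT libraries and 1, 6, 0 and 11 counts in the HOMO libraries (exact permutation p = 0.143, two-sided). The 3 genes were thus highest in HOMO4. HOMO4 also held 1882 counts of 8 genes of small intestine epithelium, a list chosen after the data were seen, with 685 of Reg3b and 319 of Sis, where the other 7 libraries held 0 to 2 counts. The part of such transcripts in the counts of H2-Q2, H2-Q1 and H2-T3 was not tested. H2-M10.2, H2-Q5 and H2-M2 had 10 counts each (exact permutation p = 0.371, 0.286 and 0.143, two-sided), and H2-Ke6 had 18 (exact permutation p = 0.571, two-sided).

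Class II transcripts other than H2-DMb1 and H2-DMa were below 2 CPM in every library of both genotypes. H2-DMb1, a subunit of the DM peptide editor, had 10.24, 11.4, 38.0 and 19.7 CPM in the WT libraries and 4.06, 5.30, 8.87 and 11.2 CPM in the HOMO libraries. HOMO4 overlapped WT1, and WT3 and WT4 were the highest libraries. The log2 fold change was -1.43 (SE 0.49, edgeR adjusted p = 0.0844, DESeq2 adjusted p = 0.0197), and -0.56 (edgeR adjusted p = 0.306) with WT3 and WT4 left out. H2-DMa, the partner subunit, had 1.86, 1.72, 3.50 and 3.52 CPM in the WT libraries and 1.11, 1.15, 1.98 and 2.46 CPM in the HOMO libraries (log2 fold change -0.67, SE 0.40, edgeR adjusted p = 0.283). Both DM genes were highest in WT3 and WT4, the libraries with the high macrophage markers, and within HOMO libraries both were higher in HOMO3 and HOMO4, where the macrophage sum was 161 and 184 CPM, than in HOMO1 and HOMO2, where it was 29.2 and 27.8 CPM. The part of those markers in the DM levels was not tested, and in such bulk libraries fewer cells of a type and less RNA per cell cannot be told apart.

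The chains that bind peptide for display hardly appeared. H2-Ab1 had 0, 2, 32 and 14 counts in the WT libraries and 1, 4, 6 and 11 counts in the HOMO libraries (exact permutation p = 0.657, two-sided). H2-Aa had 0, 0, 4 and 4 counts in the WT libraries and 0, 3, 5 and 13 counts in the HOMO libraries (exact permutation p = 0.457, two-sided). Cd74, the invariant chain that is the most abundant class II transcript in presenting cells, had 3, 8, 5 and 4 counts in the WT libraries and 2, 10, 16 and 33 counts in the HOMO libraries (exact permutation p = 0.314, two-sided). Cd74 was no higher in WT3 and WT4 than in WT2, unlike the macrophage markers. Within HOMO libraries it was higher in HOMO3 and HOMO4 than in HOMO1 and HOMO2, as those markers were. HOMO4, which also held the small intestine transcripts, was the highest library, and their part in Cd74 was not tested. H2-Eb1 did not follow the macrophage markers across the WT libraries either, though within HOMO libraries it too was higher in HOMO3 and HOMO4. It had 1.29, 1.29, 0.631 and 0.619 CPM in the WT libraries and 0.357, 0.272, 0.558 and 0.752 CPM in the HOMO libraries (log2 fold change -0.99, SE 0.46, edgeR adjusted p = 0.172). WT1 and WT2 were its highest libraries.

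**Figure D5:**
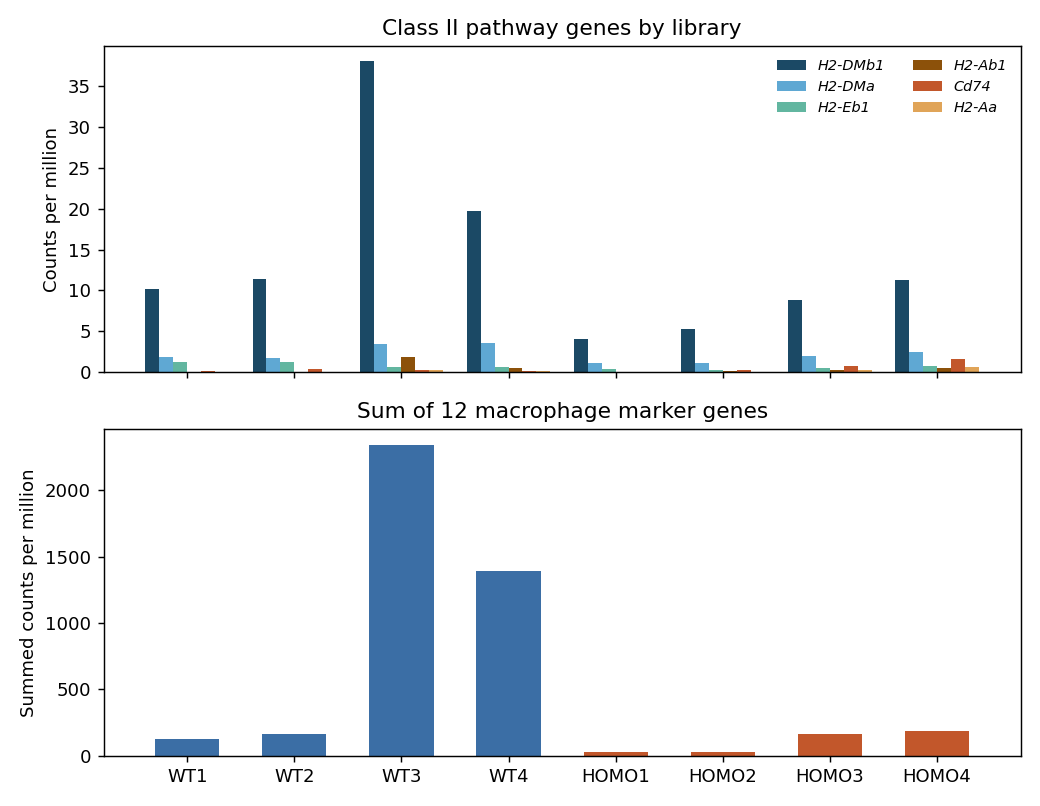
CPM by library of 6 class II pathway genes (above) and the summed CPM of 12 macrophage markers (below), on linear axes. The DM genes are highest in WT3 and WT4, where the marker sum is 2343 and 1395 CPM, and H2-Ab1, H2-Aa and Cd74 stay below 2 CPM in all libraries.

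Members with 1 to 9 counts in total were H2-Bl, H2-M6-ps, H2-Q10, H2-DMb2, H2-M9, H2-Ob and H2-M1. The 13 members at 0 counts in every library were H2-Q3, H2-M11, the H2-M10 genes other than H2-M10.2, the class II genes H2-Oa and H2-Eb2, and the class II pseudogenes H2-Ea-ps, H2-Pa and H2-Pb. A count of 0 allows a level of up to the 3-count floor in a library, so that lower transcription was not detectable at this depth. Other genes that lie between Tapbp and H2-M2 in the same stretch of chromosome 17 had a median log2 fold change of 0.00. They gave 7 calls among 89 tested (7.87%), beside 12.1% of all genes.

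A list of 55 partner genes of these routes was examined for comparison, of which 52 were tested. Of these, 1 rose and 5 fell in HOMO libraries, beside the 12.1% of all genes called, and the median log2 fold change was -0.44. Cd80, a co-stimulatory ligand of T cells, fell from 13.6, 14.2, 14.6 and 14.4 CPM in the WT libraries to 1.29, 2.24, 3.60 and 3.46 CPM in the HOMO libraries (log2 fold change -2.42, SE 0.32, edgeR adjusted p = 0.00450). It was nearly constant across the WT libraries, WT3 and WT4 included, and was called without each of the 8 libraries in turn. Cd274, the inhibitory ligand PD-L1, fell as well (log2 fold change -1.13, SE 0.29, edgeR adjusted p = 0.0373), with 2.45 to 4.61 CPM in WT and 1.52 to 2.06 CPM in HOMO libraries. The call of Cd274 was kept without WT2 or WT3 and lost without any of the other 6 libraries, with an edgeR adjusted p of up to 0.123.

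Icam1, the adhesion ligand of T cell integrins, fell from 171, 176, 59.7 and 41.9 CPM in the WT libraries to 10.21, 8.41, 17.3 and 20.7 CPM in the HOMO libraries (log2 fold change -2.99, SE 0.54, edgeR adjusted p = 0.0123). The genotypes did not overlap, and WT1 and WT2 stood far above WT3 and WT4. Its call was lost without HOMO1, with an edgeR adjusted p of 0.0508. Ifngr2, a chain of the interferon gamma receptor, fell from 74.4 to 123 CPM in WT to 44.5 to 48.2 CPM in HOMO libraries (log2 fold change -0.94, SE 0.17, edgeR adjusted p = 0.0133). Irf2, a factor that binds interferon elements and lies on chromosome 8, rose from 22.5, 29.5, 30.5 and 38.0 CPM to 63.9, 60.5, 45.3 and 45.9 CPM (log2 fold change 0.84, SE 0.20, edgeR adjusted p = 0.0288). The call of Ifngr2 was lost without HOMO1 or HOMO2, and that of Irf2 without any of WT1, WT2, HOMO1 or HOMO2, with edgeR adjusted p-values of up to 0.0567 and 0.0968.

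Irf1, an interferon-induced factor known to act on class I and immunoproteasome genes, was not called. It had 14.8 to 32.1 CPM in WT and 29.9 to 39.9 CPM in HOMO libraries (log2 fold change 0.39, SE 0.25, edgeR adjusted p = 0.310). Rfx5, a subunit of the factor that tethers both transactivators to MHC promoters, had a log2 fold change of 0.48 (SE 0.21, edgeR adjusted p = 0.154). Among the 19 transcription and interferon signaling genes of the list, 2 were called, Irf2 and Ifngr2. Ctss, the protease that degrades the invariant chain, had 6.98, 8.97, 172 and 88.9 CPM in the WT libraries and 0.669, 0.696, 10.64 and 10.7 CPM in the HOMO libraries (log2 fold change -3.62, SE 1.32, edgeR adjusted p = 0.0994). Its levels followed the macrophage markers across libraries, and with WT3 and WT4 left out its edgeR adjusted p was 0.752.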

How the data were processed

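Counts per gene were deposited by the authors for 4 WT and 4 HOMO libraries. Poly-A RNA libraries were sequenced in pairs, reads were trimmed with fastp, aligned with STAR to mm10 and counted with featureCounts, per the labels and the study's methods. The versions and the strand setting are not given in the sources used here, and the kit does not mark strand, so reads of a gene and of an overlapping antisense gene cannot be told apart. The table carries the label "outlierout", whose meaning is not stated. Every column was matched to a library, with 0 left aside.

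HOMO was compared with WT by edgeR 4.0.16 (R 4.3.3), with TMM scaling, filterByExpr by genotype and the two-sided quasi-likelihood F test on all 8 libraries, over 14150 genes. The standard error of a fold change was derived as its size over the root of the F statistic. Members outside the filter with at least 10 counts were compared by two-sided exact permutation of CPM. Positions, exon lengths and 100-base windows shared between genes came from GENCODE M21 (GRCm38). Alternatives used DESeq2 1.42.0 and limma 3.58.1, other scalings and filters, a replicate block, each library left out, and near-identical libraries summed. Leaving out WT3 and WT4 together was added after the data were seen. Python 3.11.15 and matplotlib 3.10.9 served for tables and figures, and the test was tried on simulated data.

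The members and lists were chosen with earlier results of these data known. Every member was accounted for, those that were tested or held at least 10 counts were named with values, and of the partners, the called ones and the counterparts of members were named, except 1 gene that is not reported here. Same-numbered WT and HOMO libraries did not deviate together (correlations of -0.124 to 0.014), and nothing in the labels ties them. The authors' own comparison, the human transgene, qPCR and protein measurements were not analysed here.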

Additional observations from a re-analysis of the deposited data

Results flagged for a closer look

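In 4 of the 84 groups of 4 libraries examined, 1 library stood apart from the other 3, where chance gives about 1 in 20 for independent values. H2-T24 in WT3 had -0.87 on the log2 CPM scale, against 3.0 to 3.46 in the other WT libraries. Pdia3 in WT3 had 11.23, against 10.18 to 10.27. Irf1 in WT4 had 3.90, against 4.83 to 5.01, and Cd274 in WT2 had 1.34, against 2.10 to 2.23. All 4 were WT libraries. The HOMO libraries form near-identical pairs, so that 1 of them could hardly stand apart from the other 3, and nothing was read from this.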

How the results depend on the processing

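The members called, 4 in the main comparison, were 7 with DESeq2, 2 with no filter on low counts, 10 with limma-voom and sample weights, 0 with near-identical libraries summed, 11 with WT3 and WT4 left out, and 1 to 5 with each library left out. For class I alone, also 4, they were 2 with no filter, 9 with limma-voom, 2 with the replicate block, 0 with libraries summed, 11 without WT3 and WT4, and 1 to 5 with each library left out. For class II, 0 in the main comparison, they were 1 each with DESeq2 (H2-DMb1), limma-voom (H2-Eb1) and the replicate block (H2-DMb1). The partners called, 6 in the main comparison, were 17 with DESeq2, 11 with limma-voom, 0 with libraries summed, 10 without WT3 and WT4, and 1 to 7 with each library left out. The causes were not tested, except that summing leaves 3 and 2 units.

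With the replicate block, 3 members were called in all, Psmb8 and Psmb10 lost their calls and the log2 fold change of H2-T24 turned to 0.094; the numbers do not pair the libraries. Log2 fold changes that changed sign were B2m (0.10 with limma-voom, 0.25 without WT3 and WT4), H2-D1 (0.068 and 0.099 in the same settings), and, with libraries summed, Tapbp (-0.13), H2-K1 (-0.11), Tap1 (0.073) and Tapbpl (-0.092). With each library left out, these ranged from -0.17 to 0.54 for Tapbp, -0.13 to 0.81 for H2-K1, -0.26 to 0.086 for Tap1, -0.12 to 0.20 for Tapbpl and -0.67 to 0.033 for H2-T24. None of these genes was called in the main comparison. RLE scaling, upper-quartile scaling and robust estimation changed no call or direction of the 27 tested members. Low members are limited by depth, and the near-identical pairs may make the spread between independent cultures look too small.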
